A study of Homo sapiens with 6 samples.

Results

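Probe sets shared by several genes are the measurements of a gene array that cannot be assigned to a single gene. They comprised 1754 of the 33297 probe sets and were all those listed with at least 2 gene symbols in the platform annotation, each kept as its own row under its joint symbol. Of the other probe sets, 19460 were listed with 1 symbol and 12083 with none. The choice used no measured value. The arrays held RNA of extracellular vesicles (EVs), the small membrane vesicles that cells release, from 2 human T cell lines. WT EVs came from Jurkat cells (JK), a T cell leukemia line with CD47, and CD47- EVs from JinB8, a Jurkat mutant labeled CD47_mut, with 3 preparations of each and no other treatment. JinB8 is 1 somatic mutant line, so loss of CD47, a receptor for thrombospondin-1, cannot be told apart from other differences between the lines.

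Both lines were grown for 24 to 48 h in serum-free HITES medium, and 300 ng of RNA was labeled per array. The protocol names Exo-quick or Exo-spin for EV isolation but does not assign them to preparations, and the series design speaks of cell culture replicates. If these were not separate cultures, the p values measure only the spread between preparations. Values are log2 signals made with RMA, a method that subtracts background, equalizes the arrays and joins the probes of a probe set. They are relative levels within the labeled RNA. A lower value can mean fewer EVs with an RNA or less of it per EV, which cannot be told apart. Over all probe sets the median was 5.08 to 5.14 in the 6 arrays, and pairs of arrays correlated with r from 0.980 to 0.989 across probe sets. The probe set of CD47 had a log2 difference of 0.02 between CD47- and WT EVs (adjusted p = 0.989), so the RNA does not check the label. T cell markers were present in part: 3 of the 11 measured lay above the 95th percentile of olfactory receptor probe sets, including LCK and CD7, while the 7 measured B cell, myeloid and platelet markers lay below even their median. Of the T cell markers, 8 lay above that median and CD2, CD28 and ZAP70 below it, while ALAS2, the 1 erythroid marker measured, and APOA1, 1 of 2 liver markers, lay above it. The median of the T cell markers was 6.14 to 6.25 in WT and 6.39 to 6.52 in CD47- arrays, and LEF1, a T cell transcription factor, was called higher (difference 0.61, adjusted p = 0.0189). The part of this in the results was not tested.

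Gene duplication produces paralogs, which can stay nearly identical in sequence, and reverse transcription of mRNAs produces processed pseudogenes, copies without introns that resemble the spliced mRNA of a highly expressed gene. A short probe that matches several such copies reports the sum of what binds to it. Shared symbols also arise where genes overlap, as with a small nucleolar RNA (snoRNA) inside an intron of its host gene, or a readthrough transcript that runs from one gene into the next. Ribosomal protein genes are known for their many processed pseudogenes, and histone genes for clusters of coding copies.

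The 1754 probe sets carried 2218 different symbols in 1006 different combinations. Of these combinations, 641 stood for 1 probe set and 365 for several, with up to 16. Most often 2 symbols were listed (896 probe sets, 51.1%), and the longest entry held 18. In 975 probe sets all symbols shared a name stem, as in H4C11/H4C12, and in 194 some did. Readthrough symbols accounted for 215, a small RNA with another gene for 79, copies of a small RNA for 41 and an antisense or divergent partner for 3. In the remaining 247 the symbols shared no stem. The genes were separate genes of the same chromosome for 955 probe sets, lay on different chromosomes for 408 and overlapped for 345, while 46 had a symbol without a position. The probe sets are not all independent: 342 fell into 146 groups with the same 6 values, each group with 1 combination of symbols, which leaves 1558 different rows of values.

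Mature microRNAs are given to show how alike the genes of a joint symbol can be. The sequences of the array's probes were not used here, so which genes a probe matches was not checked. MicroRNAs are short RNAs that bind target mRNAs mainly through the seed, bases 2 to 8. All 34 microRNA symbols in the probe sets had a mature sequence in the RefSeq table (GRCh38.p14). In the sequences below, from the chromosome 19 cluster and from chromosome X, capitals mark the seed.

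miR-519a-3p (MIR519A1 and MIR519A2): aAAGUGCAuccuuuuagagugu
miR-520b-3p (MIR520B): aAAGUGCUuccuuuuagaggg
miR-520c-3p (MIR520C): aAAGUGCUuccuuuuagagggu
miR-517c-3p (MIR517C): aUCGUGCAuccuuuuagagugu
miR-519a-2-5p (MIR519A2) and miR-520b-5p (MIR520B): cCUCUACAgggaagcgcuuuc
miR-105-5p (MIR105-1 and MIR105-2): uCAAAUGCucagacuccuguggu
miR-509-3p (MIR509-1, MIR509-2 and MIR509-3): uGAUUGGUacgucuguggguag

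MIR519A1 and MIR519A2 give an identical 3p product, and MIR519A2 and MIR520B an identical 5p product, although the latter pair differ in the seed of the 3p arm. MIR520B and MIR520C share the 3p seed. The array probes the precursors and host transcripts rather than the mature forms. MIR519A2/MIR519A1 had mean levels of 2.72 and 3.42 in its probe sets, with log2 differences of 0.03 and 0.03. MIR519A2/MIR520B had a difference of -0.03, MIR519A2/MIR517C of 0.00 and MIR520C/MIR520B of -0.14 (adjusted p = 0.805). On chromosome X, the probe sets of MIR105-2/MIR105-1 had levels of 6.38 and 6.31 and differences of -0.17 and -0.18, and MIR509-3/MIR509-2/MIR509-1 a difference of -0.10. By limma, 0 of the 32 joint microRNA probe sets were called, and 0 had a nominal p under 0.05.

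Histone promoters are given as an example for coding genes. They lie before the start of transcription, so they do not show why transcripts share a probe set. Histones are the proteins around which DNA is wound, and the replication-dependent histone genes, which lie in clusters, supply them during DNA synthesis. The 120 bases before the start of transcription are given for gene pairs that share a probe set, with capitals for TATAAA, a core promoter motif, and for CCAAT, read on both strands (RefSeq, GRCh38.p14).

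H4C11, chr6:27823972-27824091, plus strand: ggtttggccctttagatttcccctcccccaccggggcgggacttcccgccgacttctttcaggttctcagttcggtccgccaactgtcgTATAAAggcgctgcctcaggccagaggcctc
H4C12, chr6:27831561-27831680, minus strand: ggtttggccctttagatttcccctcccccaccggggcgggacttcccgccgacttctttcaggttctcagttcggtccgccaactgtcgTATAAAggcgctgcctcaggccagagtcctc
H4C14, chr1:149832537-149832656, plus strand: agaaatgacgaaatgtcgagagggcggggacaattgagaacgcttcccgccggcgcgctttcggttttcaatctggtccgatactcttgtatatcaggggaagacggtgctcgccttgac
H4C15, chr1:149861160-149861279, minus strand: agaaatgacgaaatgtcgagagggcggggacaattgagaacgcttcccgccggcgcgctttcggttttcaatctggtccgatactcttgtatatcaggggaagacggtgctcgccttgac
H3C14, chr1:149841209-149841328, minus strand: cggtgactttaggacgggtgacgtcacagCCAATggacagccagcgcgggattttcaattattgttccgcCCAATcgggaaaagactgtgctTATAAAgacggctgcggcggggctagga
H3C15, chr1:149852488-149852607, plus strand: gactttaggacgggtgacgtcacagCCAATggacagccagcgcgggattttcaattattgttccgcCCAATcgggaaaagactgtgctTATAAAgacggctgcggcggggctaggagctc

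Over the 250 upstream bases, H4C14 and H4C15 were identical, as were H3C14 and H3C15 after a shift of a few bases, and H4C11 and H4C12 were 98% identical. H4C11 and H4C14, both histone H4 genes, were 29.9% identical there, and H3C13 and H3C14, which share probe sets, 37.2%. TATAAA was found in the 120-base window of 6.03% of 27197 promoters and CCAAT in that of 21.2%. A match to these letters is a description and not evidence of use. Among the 956 probe sets with a window for at least 2 of their genes, the closest pair of windows was at least 95% identical in 380 and below 50% in 493, allowing shifts of up to 10 bases. Sharing a probe set thus covered genes with nearly the same upstream sequence and genes with little identity there.

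The level of the shared probe sets was described first, because the deposited values have no detection calls. The median of their mean levels was 6.04 (quartiles 5.02 and 6.92), compared with 5.21 for probe sets with 1 symbol. As a gauge of background, 379 olfactory receptor probe sets with 1 symbol, genes of smell not known for expression in T cells, had a median of 5.45 and a 95th percentile of 6.77. Above that percentile lay 514 shared probe sets (29.3%), compared with 5.38% of those with 1 symbol. The median level was 5.50 with 2 symbols, 6.40 with 3 or 4, 6.74 with 5 to 9 and 6.95 with 10 or more. The 63 shared probe sets of olfactory receptor genes themselves had a median level of 7.45. A high value of a shared probe set therefore does not show that any of its genes was present in the EVs.

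**Figure D1:**
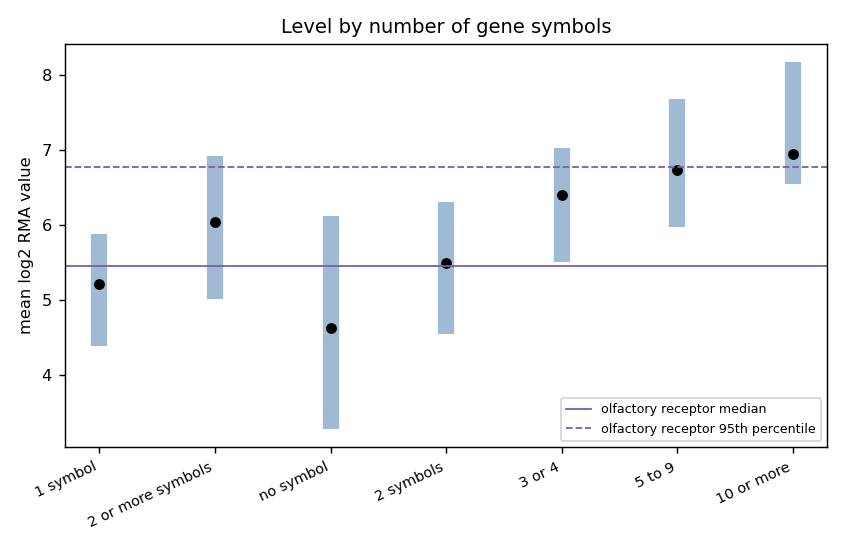
Mean log2 RMA value over the 6 arrays, on the vertical axis, for probe sets with 1 symbol, with several, with none, and with several by the number of symbols. Dots are medians and bars span the quartiles, and the median rises from 5.50 with 2 symbols to 6.95 with 10 or more, past the dashed line at the 95th percentile of olfactory receptor probe sets (6.77).

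The highest levels belonged to ribosomal RNA, the RNA core of the ribosome, where the probe sets of RNA28SN5/RNA18SN5/RNA5-8SN5 had means of 12.5 and 11.9. Near them were 7 probe sets of NBPF genes, a repeat-rich family expanded in primates, with means of 10.9 to 11.6. RN7SK/LINC01517, which holds the 7SK RNA that restrains transcription elongation, had a mean of 11.1, and RN7SL2/RN7SL1, the RNA of the signal recognition particle, one of 10.9. Keratin-associated protein genes, which encode hair proteins, also had a median level of 7.86 in their 25 shared probe sets, and OR7E85BP/OR7E91P, olfactory receptor pseudogenes, had a level of 10.4. Because probe sets differ in how well they bind, the order of these levels is not an order of abundance.

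The comparison of CD47- with WT EVs addresses which vesicle RNAs differ between the line without CD47 and its parent. Of the shared probe sets, 2 (0.114%) passed an adjusted p of 0.05 with higher values in CD47- EVs, by limma over all probe sets. With lower values 0 passed. Over the whole array, 0.523% were called higher and 0.021% lower. The share called higher was 0.272% for probe sets with 1 symbol and 0.985% for those with none. Before adjustment, at a nominal p under 0.05, 98 of the 1754 were above and 38 below WT EVs, 5.59% and 2.17%, beside 5.01% and 3.03% of all probe sets. The 3 CD47- arrays lay above all WT arrays in 153 (8.72%) and below all in 86 (4.90%), beside 7.31% and 5.81% of all. The median log2 difference of the shared probe sets was -0.0034, and that of all probe sets -0.0018. In the median difference and the nominal counts, the shared probe sets were thus near the background of the array. Their share of higher calls was below that of the array. Their differences ran from -0.68 to 1.09.

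**Figure D2:**
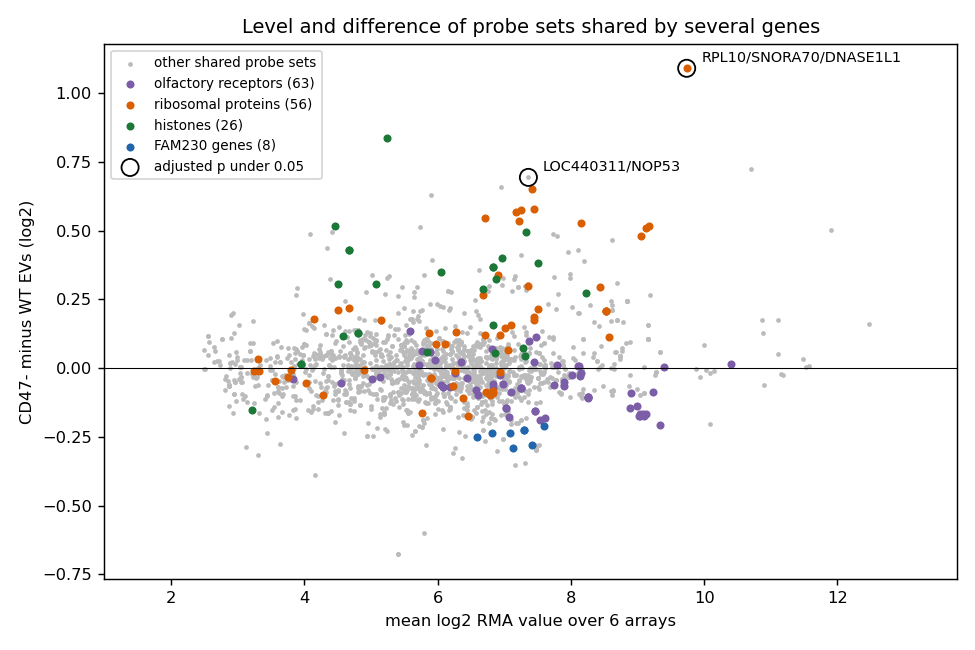
Each of the 1754 shared probe sets is drawn by its mean log2 value over the 6 arrays (horizontal axis) and its log2 difference, CD47- minus WT EVs (vertical axis). Colors mark 4 families and circles the 2 probe sets with an adjusted p under 0.05, which lie at 1.09 and 0.69, while histone and ribosomal protein probe sets lie mostly above 0 and FAM230 probe sets all below it.

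RPL10/SNORA70/DNASE1L1 had the largest difference. RPL10 encodes a protein of the large ribosomal subunit, SNORA70 is a snoRNA located within it, and DNASE1L1 is a neighboring gene of the DNase I family. Its values were 9.39, 9.09 and 9.09 in WT EVs and 10.09, 10.31 and 10.45 in CD47- EVs, without overlap. The log2 difference was 1.09 (SE 0.12, adjusted p = 0.0158). The other shared probe sets that hold RPL10 did not follow it: NDUFS5/SNORA70/RPL10/DNASE1L1 had a difference of 0.09 (adjusted p = 0.948), and the 2 probe sets of SNORA70/RPL10 had -0.18 and -0.01. The probe set listed with RPL10 alone had a smaller difference of the same sign, 0.42 (SE 0.12, adjusted p = 0.333), with all CD47- arrays above all WT arrays. That of DNASE1L1 alone had -0.07. The 4 shared probe sets with RPL10 thus ranged from -0.18 to 1.09, and the called value belongs to 1 probe set and not to a gene.

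LOC440311/NOP53 was the other called probe set. NOP53 encodes a nucleolar protein of ribosome assembly, and the symbols lie on different chromosomes. It had 7.11, 6.86 and 7.07 in WT EVs and 7.63, 7.71 and 7.79 in CD47- EVs, again without overlap. The difference was 0.69 (SE 0.09, adjusted p = 0.0253). The probe set listed with NOP53 alone had a level of 5.57 and a difference of 0.10 (adjusted p = 0.910). Neither call held in every fit with 1 array left out, but calls over all probe sets also fell in these fits. Those called higher numbered 174 with all arrays and 46 to 119 with 1 left out. The differences stayed at 0.91 to 1.19 for RPL10/SNORA70/DNASE1L1 and 0.62 to 0.76 for LOC440311/NOP53 in all alternatives. LOC440311/NOP53 was not called with any 1 array left out, and RPL10/SNORA70/DNASE1L1 only without WT array 1 (adjusted p = 0.0391) or CD47- array 1 (adjusted p = 0.0197).

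**Figure D3:**
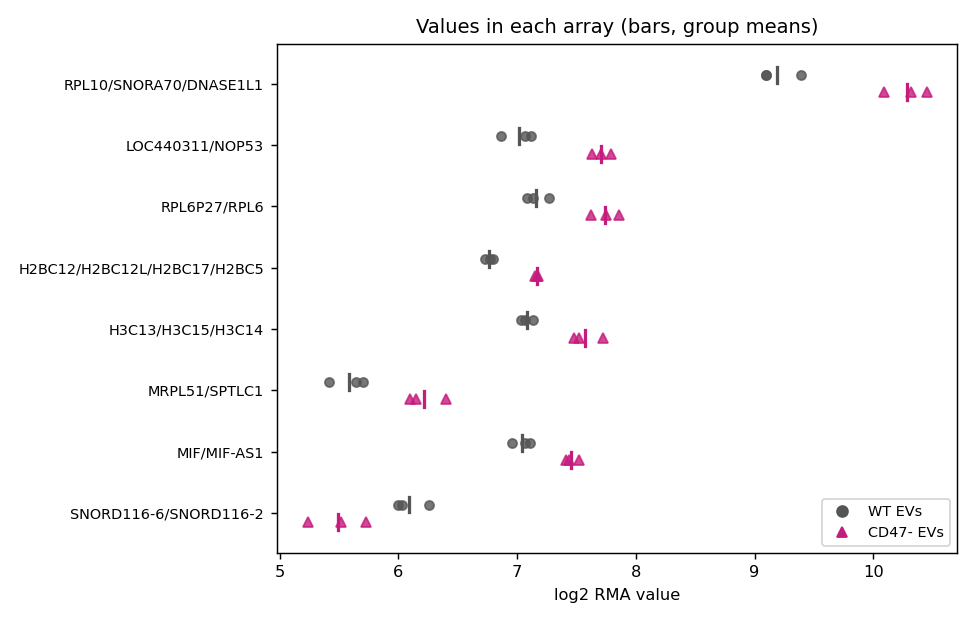
Log2 RMA value (horizontal axis) in each WT (circles) and CD47- (triangles) array for 8 shared probe sets, with vertical bars at the group means. The groups do not overlap in any of them: the first 7 are higher in CD47- EVs, by 0.40 to 1.09, and SNORD116-6/SNORD116-2 is lower by 0.60.

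A further 6 shared probe sets had an adjusted p under 0.1, all with higher values in CD47- EVs. They were 2 of RPL6P27/RPL6, 2 of histone genes, MRPL51/SPTLC1 and MIF/MIF-AS1. MRPL51, a protein of the mitochondrial ribosome, shares a probe set with SPTLC1, a subunit of the enzyme that starts sphingolipid synthesis. MRPL51/SPTLC1 had 5.64, 5.70 and 5.42 in WT and 6.15, 6.10 and 6.40 in CD47- EVs (difference 0.63, SE 0.11, adjusted p = 0.0755), while SPTLC1 alone differed by 0.02. MIF/MIF-AS1, which holds the cytokine macrophage migration inhibitory factor and its antisense RNA, had 7.07, 7.11 and 6.95 in WT and 7.41, 7.52 and 7.44 in CD47- EVs (difference 0.41, SE 0.07, adjusted p = 0.0837). In none of these did the groups overlap.

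Ribosomal proteins and their copies formed 56 shared probe sets, which had a median log2 difference of 0.13. Of these, 1 was called (the RPL10 probe set), 20 were higher and 0 lower at a nominal p under 0.05, and in 21 all CD47- arrays were above all WT arrays. Over all probe sets the shares, also for comparison with the families below, were 5.01%, 3.03% and 7.31%. The 20 include 4 of RPL9P11/RPL9, 3 of RPL41P5/RPL41 and 3 of RPS18P9/RPS18, so they are not separate observations. Among the different rows of values 18 were higher at that p. Over all 56 the count was 13 without WT array 3, the lowest with 1 array left out. The median was 0.08 after a further quantile normalization and 0.19 after centering on olfactory receptors, with a count of 27 after the latter. Of the 137 ribosomal protein probe sets with 1 symbol, 9 were called higher and 58 were higher at that threshold, and their median was 0.17.

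Among the large-subunit genes, RPL6P27/RPL6, a gene with its pseudogene, had 7.13, 7.27 and 7.08 in WT and 7.62, 7.75 and 7.86 in CD47- EVs in one probe set (difference 0.58, SE 0.09, adjusted p = 0.0507). In the other it had 7.07, 7.22 and 6.98 against 7.55, 7.79 and 7.88 (difference 0.65, SE 0.11, adjusted p = 0.0585). All CD47- values were above all WT values in both.

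RPL13AP5/RPL13AP3/RPL13AP20/RPL13A, with 3 pseudogenes of RPL13A, had 7.99, 7.96 and 7.74 in WT and 8.25, 8.42 and 8.60 in CD47- EVs (difference 0.53, SE 0.11, adjusted p = 0.144). The probe sets of single copies had 0.76 for RPL13AP5 (adjusted p = 0.0209), 0.47 for RPL13AP20 and 0.05 for RPL13AP3. The 3 probe sets of RPL41P5/RPL41, a gene for a very short ribosomal peptide, had differences of 0.48 to 0.52 at levels of 9.05 to 9.17. The 4 probe sets of RPL9P11/RPL9 had differences of 0.54 to 0.57, but with adjusted p no lower than 0.342. In RPL9P11/RPL9 the WT value of array 2 was the highest of its group, for example 6.68, 7.21 and 6.78 in WT and 7.41, 7.25 and 7.72 in CD47- EVs.

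Of the small-subunit genes, RPS26 was in 6 probe sets with differences of 0.09 to 0.34 and a median of 0.13, and the arrays did not overlap in 1 of them, RPS26P11/RPS26 (difference 0.34, SE 0.11, adjusted p = 0.390). The 3 probe sets of RPS18P9/RPS18, with identical values, had a difference of 0.21. RPS27 shares its probe sets with the unrelated genes ZNF320 and RGS4, and ZNF320/RPS27/RGS4 had 0.30 and 0.27.

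Translation factors, which start and extend protein synthesis, formed 13 shared probe sets with a median difference of 0.06. Of these, 5 were higher and 0 lower at a nominal p under 0.05. Among the different rows of values 4 were higher at that p. Some of the 13 list the same genes, so they are not all separate observations. EIF5AL1/EIF5A, the factor that relieves stalled ribosomes and its copy, had 5.63, 5.48 and 5.54 in WT and 5.80, 5.90 and 5.83 in CD47- EVs in one probe set (difference 0.29, SE 0.07, adjusted p = 0.237). EIF3CL/EIF3C, a subunit of the initiation complex eIF3 and its duplicate, had 7.10, 7.14 and 6.91 against 7.32, 7.29 and 7.43 (difference 0.29, SE 0.09, adjusted p = 0.345). None was called.

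The 4 shared probe sets of ribosomal RNA had positive differences with a median of 0.33. RNA45SN5/RNA28SN5, covering the precursor and the large ribosomal RNA, had 10.5, 10.6 and 9.86 in WT and 10.8, 11.2 and 11.2 in CD47- EVs (difference 0.72, SE 0.20, adjusted p = 0.310). RNA28SN5/RNA18SN5/RNA5-8SN5 had 0.50 and 0.16, and RNA45SN5/RNA18SN5, of the precursor and the small-subunit RNA, 0.13. WT array 3 had the lowest value of the 6 arrays in all 4.

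Probe sets with at least 2 histone symbols numbered 26, 25 with a difference above 0 and a median of 0.30. At a nominal p under 0.05, 15 were higher and 0 lower, beside 5.01% and 3.03% of all probe sets. In 17 all CD47- arrays were above all WT arrays, beside 7.31% of all. Among the different rows of values 13 were higher at that p, and several of them are of the same genes, so they are not separate observations. None of the 26 passed the adjusted threshold (smallest adjusted p = 0.0558). The median was 0.36 after centering on olfactory receptors and 0.27 after a further quantile normalization, and leaving out 1 array gave 13 to 15. The 73 histone probe sets with 1 symbol had a median of 0.15, with 26 higher and 2 lower at a nominal p under 0.05 and 3 called higher. A further 2 probe sets joined 1 histone symbol with another gene and were below 0. These were H2BW3P/TMSB15B at -0.24 (adjusted p = 0.379), with all CD47- arrays below all WT arrays, and H2BC18/FCGR1BP, with an Fc receptor pseudogene, at -0.12 (adjusted p = 0.898). The 28 probe sets together had a median of 0.28, with 15 higher and 1 lower at a nominal p under 0.05.

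By type of histone, H2BC12/H2BC12L/H2BC17/H2BC5 of histone H2B had 6.80, 6.73 and 6.77 in WT and 7.18, 7.15 and 7.17 in CD47- EVs, with the groups apart and little spread within them (difference 0.40, SE 0.06, adjusted p = 0.0558). The probe sets of its genes alone did not follow: H2BC12 had 0.20, H2BC17 0.02 and H2BC5 -0.11. Their levels of 5.42, 5.16 and 4.97 were below the olfactory receptor median of 5.45, while the joint probe set had 6.97. H3C13/H3C15/H3C14 of histone H3, which includes the genes with the upstream sequences given above, had 7.07, 7.14 and 7.04 in WT and 7.48, 7.52 and 7.72 in CD47- EVs (difference 0.50, SE 0.09, adjusted p = 0.0719). Its other 3 probe sets had 0.38, 0.37 and 0.37.

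Of histone H4, H4C11/H4C12 had 4.15, 4.10 and 4.36 in WT and 4.59, 4.89 and 4.69 in CD47- EVs (difference 0.52, SE 0.11, adjusted p = 0.131). Its other probe set had 4.78, 4.70 and 4.99 against 5.23, 5.99 and 5.77 (difference 0.84, SE 0.19, adjusted p = 0.174). H4C15/H4C14 had a level of 3.95 and a difference of 0.01 in both of its identical probe sets. Of histone H2A, H2AC19/H2AC21/H2AC20/H2AC18 had a difference of 0.43 (SE 0.12, adjusted p = 0.306).

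Some histone variants are made outside of DNA synthesis, or in the testis. H3P6/H3-3A, the replication-independent H3.3 and a pseudogene, had 0.04 to 0.16 in its probe sets. H2AB1/H2AB2/H2AB3, testis variants of H2A, had 0.12 to 0.13. H3C11/H3C6 was the only one of the 26 below 0, at -0.15 (adjusted p = 0.735) and with a level of 3.21. H4C11/H4C12, with levels of 4.46 and 5.24, and H2AC19/H2AC21/H2AC20/H2AC18, with 4.67, were also below the olfactory receptor median of 5.45.

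**Figure D4:**
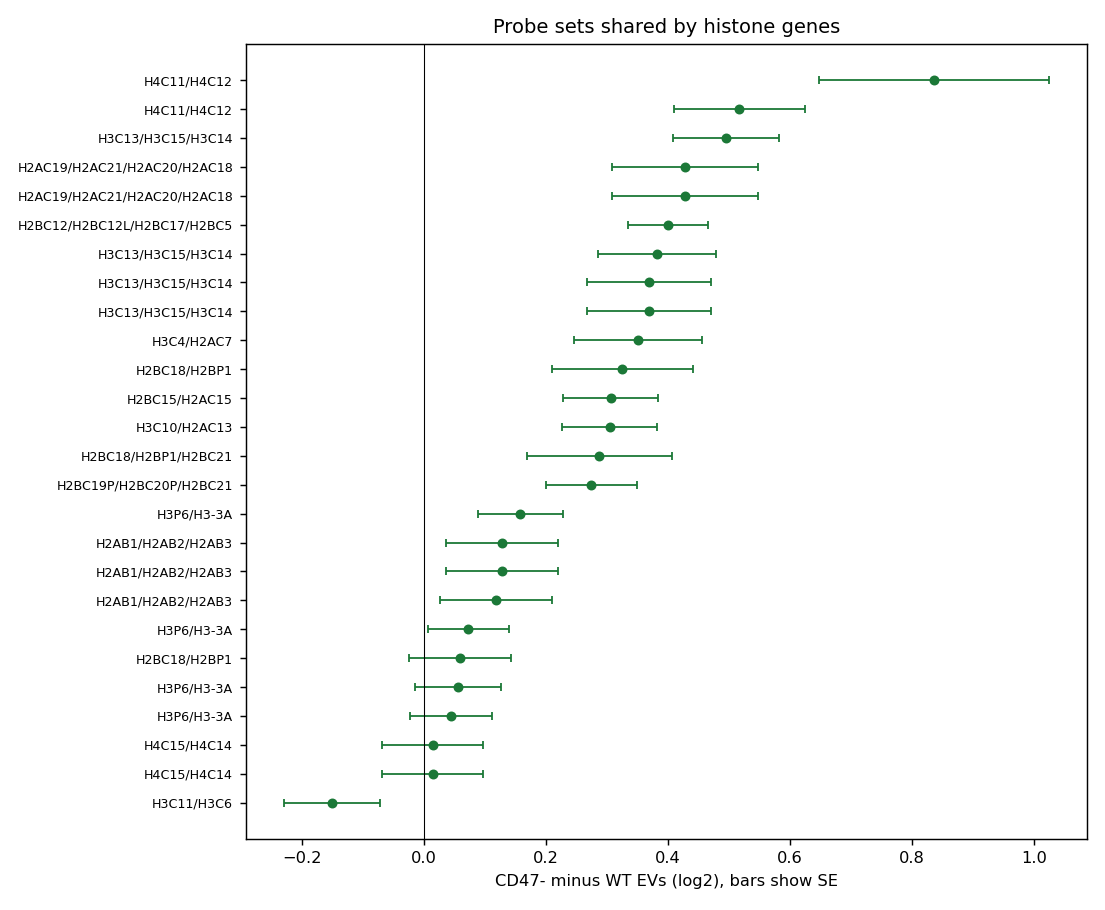
Log2 difference between CD47- and WT EVs (horizontal axis, bars show the SE of the fit) for each of the 26 probe sets with at least 2 histone symbols, named by joint symbol. All but H3C11/H3C6 lie above 0, H4C11/H4C12 and H3C13/H3C15/H3C14 are among the highest, and H3P6/H3-3A and H4C15/H4C14 are near 0.

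Abundant genes of the cytoskeleton and metabolism with known copies gave smaller sets. POTE genes are ankyrin repeat genes, some of which carry a part derived from actin. All 14 of their shared probe sets list POTEE. The 5 without POTEB had differences of 0.22 to 0.46, each with non-overlapping arrays, and the 9 with POTEB had -0.15 to -0.01. They also differed in level, with 7.65 to 8.70 in the 5 and 4.95 to 6.64 in the 9. A division by partners therefore cannot be told apart from one by level. POTEF/POTEJ/POTEM/POTEE/POTEKP had 8.34, 8.58 and 8.23 in WT and 8.79, 8.93 and 8.82 in CD47- EVs (difference 0.46, SE 0.10, adjusted p = 0.166). At a nominal p under 0.05 all 5 were higher, but 2 were without CD47- array 2 and 3 without WT array 3 or CD47- array 3. The median of the 14 was -0.05, and 0.01 after centering on olfactory receptors.

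Thymosin beta 4 binds actin monomers, and TMSB4XP6/TMSB4XP2/TMSB4XP1/TMSB4X, the gene with its pseudogenes, had 7.91, 7.95 and 7.81 in WT and 8.13, 8.38 and 8.46 in CD47- EVs (difference 0.43, SE 0.10, adjusted p = 0.196). In its other probe set the difference was 0.34 and the groups overlapped. The probe set of TMSB4XP2 alone had 0.02. H2BW3P/TMSB15B, a histone pseudogene with another thymosin, had the opposite sign, as given above.

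PGAM4/PGAM1, the glycolytic enzyme phosphoglycerate mutase and its testis copy, had 5 shared probe sets with differences of 0.28 to 0.31, and the arrays did not overlap in any. In the one with the smallest p the values were 7.24, 7.23 and 7.12 in WT and 7.45, 7.45 and 7.60 in CD47- EVs (SE 0.08, adjusted p = 0.243). All 5 had a nominal p under 0.05 with any 1 array left out. Because they read the same genes, they count as 1 observation.

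Among RNA-binding proteins, 24 shared probe sets of hnRNP and splicing genes had a median difference of 0.06. At a nominal p under 0.05, 6 were higher and 1 lower, beside 5.01% and 3.03% of all probe sets. The lowest difference, -0.32, was that of a probe set that also holds a SNORD115 snoRNA and is counted with the snoRNAs too. Shared probe sets with a SNORD115 snoRNA had levels of 2.51 to 4.36. HNRNPA1P6/HNRNPA1P33/HNRNPA1P27/HNRNPA1P10/HNRNPA1L2/HNRNPA1, a splicing regulator with its copies, had 7.47, 7.81 and 7.37 in WT and 7.91, 8.04 and 8.14 in CD47- EVs (difference 0.48, SE 0.12, adjusted p = 0.255). The 4 shared probe sets with HNRNPA1 or a copy had differences of 0.23 to 0.48 at levels of 7.79 to 8.29. Of these 4, 3 were higher at a nominal p under 0.05. HNRNPA1 alone had a level of 3.37 and a difference of 0.05. Outside this group, the 3 probe sets of LOC100421561/FAM133CP/FAM133DP/FAM133B had 0.39, 0.33 and 0.30 (smallest adjusted p = 0.200). They list the same genes, so they are not separate observations.

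Readthrough probe sets can be compared within a locus, because 71 of 123 readthrough symbols had several, often one for each partner gene. In 6 loci chosen after their values were seen, only one partner was far from 0. NDUFC2-KCTD14/NDUFC2, the part shared with a subunit of respiratory complex I, had 3.86, 3.94 and 3.70 in WT and 4.15, 4.39 and 4.43 in CD47- EVs (difference 0.49, SE 0.10, adjusted p = 0.136). NDUFC2-KCTD14/KCTD14 had -0.03. SYNJ2BP-COX16/COX16, shared with an assembly factor of cytochrome oxidase, had 5.55, 5.54 and 5.36 against 5.77, 6.05 and 6.17 (difference 0.51, SE 0.12, adjusted p = 0.174), and SYNJ2BP-COX16/SYNJ2BP had 0.08.

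The same held for translation genes in readthrough loci. URGCP-MRPS24/MRPS24, of the mitochondrial ribosome, had 0.28 and URGCP-MRPS24/URGCP 0.04. SENP3-EIF4A1/EIF4A1, of the RNA helicase of initiation, had 0.26 and SENP3-EIF4A1/SENP3, of a SUMO protease, -0.02. RPS10-NUDT3/RPS10 had 0.22 and RPS10-NUDT3/NUDT3 -0.07. Of the splicing and export helicase, the 3 probe sets of ATP6V1G2-DDX39B/DDX39B had 0.30 to 0.33 and those of ATP6V1G2-DDX39B/ATP6V1G2 -0.03 to 0.01. None of these passed the test, and the difference between partners was not tested.

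RNASEK-C17orf49/RNASEK, which holds a membrane-associated ribonuclease and had the largest readthrough difference, gave 6.76, 6.68 and 6.43 in WT and 7.37, 7.05 and 7.42 in CD47- EVs (difference 0.66, SE 0.13, adjusted p = 0.102). RNASEK-C17orf49/RNASEK/BACC1 had 0.34 and RNASEK-C17orf49/BACC1 0.19, so both partners of this locus were above 0. Over all 215 readthrough probe sets the median was 0.01, and 11 were higher and 3 lower at a nominal p under 0.05. Of all probe sets 5.01% were higher and 3.03% lower, so the higher count of the readthrough class was near the share of the array.

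Noncoding RNAs with copies had few differences past either threshold. The 76 shared probe sets with a snoRNA had a median difference of 0.00, with 2 higher and 5 lower at a nominal p under 0.05. The balance was not stable, with 4 higher and 2 lower without WT array 2, and 5 higher and 1 lower after centering on olfactory receptors. The only call was the RPL10 probe set described above. Of the spliceosomal RNAs, RNVU1-17/RNU1-1/RNU1-2/RNU1-3/RNVU1-7/RNVU1-18/RNU1-4, which represents the U1 RNA that recognizes the start of introns, had a level of 9.15 and a difference of 0.16 in the first of its probe sets (adjusted p = 0.895). The median of the 9 spliceosomal RNA probe sets was 0.11, and -0.07 after a further quantile normalization. RN7SK/LINC01517 had 0.18 and RN7SL2/RN7SL1 0.17 (adjusted p = 0.827 for the latter).

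On the lower side nothing was called, and the smallest p values were those of a SNORD116 probe set and of FAM230 probe sets. SNORD116-6/SNORD116-2, snoRNAs of the imprinted Prader-Willi region that have no established target, had 6.25, 6.03 and 5.99 in WT and 5.24, 5.52 and 5.72 in CD47- EVs (difference -0.60, SE 0.13, adjusted p = 0.173). All CD47- values were below all WT values. The probe set of SNORD116-6 alone had a level of 3.97 and a difference of 0.14. The 9 shared probe sets with a SNORD116 snoRNA had a median of 0.00, and 1 of them had a nominal p under 0.05.

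FAM230 genes are noncoding copies in duplicated regions, many of them on chromosome 22. The 8 probe sets of FAM230J/FAM230B/FAM230C had differences from -0.29 to -0.21, and in each all CD47- arrays were below all WT arrays. In the probe set with the smallest p the values were 7.31, 7.26 and 7.27 in WT and 7.03, 7.001 and 6.93 in CD47- EVs (SE 0.07, adjusted p = 0.188). All 8 had a nominal p under 0.05, but 5 did without WT array 1 or CD47- array 1, and 2 after centering on olfactory receptors. FAM230B alone had a level of 4.82 and a difference of 0.12 (SE 0.25), with scattered values of 5.19, 5.22 and 4.23 in CD47- EVs. Of the 2 FAM230 probe sets with 1 symbol, the other was lower at a nominal p under 0.05. In it all CD47- arrays were below all WT arrays. Since 2 of the 8 have identical values and all read the same genes, they are not separate observations.

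Further probe sets were also below 0. UGT2B11/UGT2B17/UGT2B15/UGT2B10/UGT2B7, enzymes that conjugate steroids, had 7.16, 7.45 and 7.41 in WT and 6.79, 7.12 and 7.06 in CD47- EVs (difference -0.35, adjusted p = 0.433). LINC00266-1/PCMTD2 had -0.26 (adjusted p = 0.330) in 2 probe sets with identical values, while its other 5 ran from -0.13 to 0.09 and PCMTD2 alone had 0.12. C8orf44-SGK3/SGK3, of a kinase downstream of phosphoinositide signaling, had -0.25 and ARPIN-AP3S2/ARPIN, of an inhibitor of actin branching, -0.33. In the probe sets given here with differences of -0.25 or lower the groups did not overlap.

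The families that contributed most probe sets otherwise had medians near 0. Cancer-testis genes of the MAGE, GAGE, SSX and related families (50 probe sets) had a median difference of 0.01, HLA genes of antigen presentation (21) one of 0.01, and keratin-associated proteins (25) one of -0.03. Zinc finger genes (30) had -0.06, NBPF genes (18) -0.08 and golgin (GOLGA) copies (47) -0.11. None of these 6 families had a probe set with a nominal p under 0.05. Only 6 of the 47 GOLGA differences were above 0. In 6 GOLGA probe sets all CD47- arrays lay below all WT arrays, beside 5.81% of all probe sets. With the replicate number as a block, 5 GOLGA probe sets were lower at that p. Olfactory receptors (63) had a median of -0.07, with 1 lower at that threshold, or 4 without WT array 2 or CD47- array 2. In 6 of the 63 all CD47- arrays lay below all WT arrays. All 20 shared probe sets of PRAME genes, another cancer-testis family, lay below 0, with a median of -0.11 and no non-overlapping arrays. Without WT array 3, 6 PRAME probe sets were lower at a nominal p under 0.05, without CD47- array 1 6 of the GOLGA genes and 2 of the HLA genes, and without CD47- array 2 4 of the MAGE and related genes. The medians of zinc finger and keratin-associated genes changed sign after centering on olfactory receptors, which moved the median of all probe sets to 0.06. NBPF, GOLGA and PRAME genes stayed below 0 at -0.01, -0.04 and -0.05. After a further quantile normalization the medians of HLA genes and of the MAGE and related families were both -0.02.

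USP17L genes, tandem copies of a deubiquitinase, had 15 shared probe sets with 8 different rows of values and a median difference of 0.24. At a nominal p under 0.05, 10 were higher, but 4 among the different rows, beside 5.01% of all probe sets. Leaving out either CD47- array 1 or 2, or WT array 3, reduced the 10 to 0, leaving out WT array 1 or 2 to 1, and a further quantile normalization lowered the median to 0.10. Killer cell receptors (KIR, 17 probe sets), which T cells can share with natural killer cells, had a median of 0.07 and 2 probe sets higher at that threshold, or 0 without WT array 2 or 3.

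**Figure D5:**
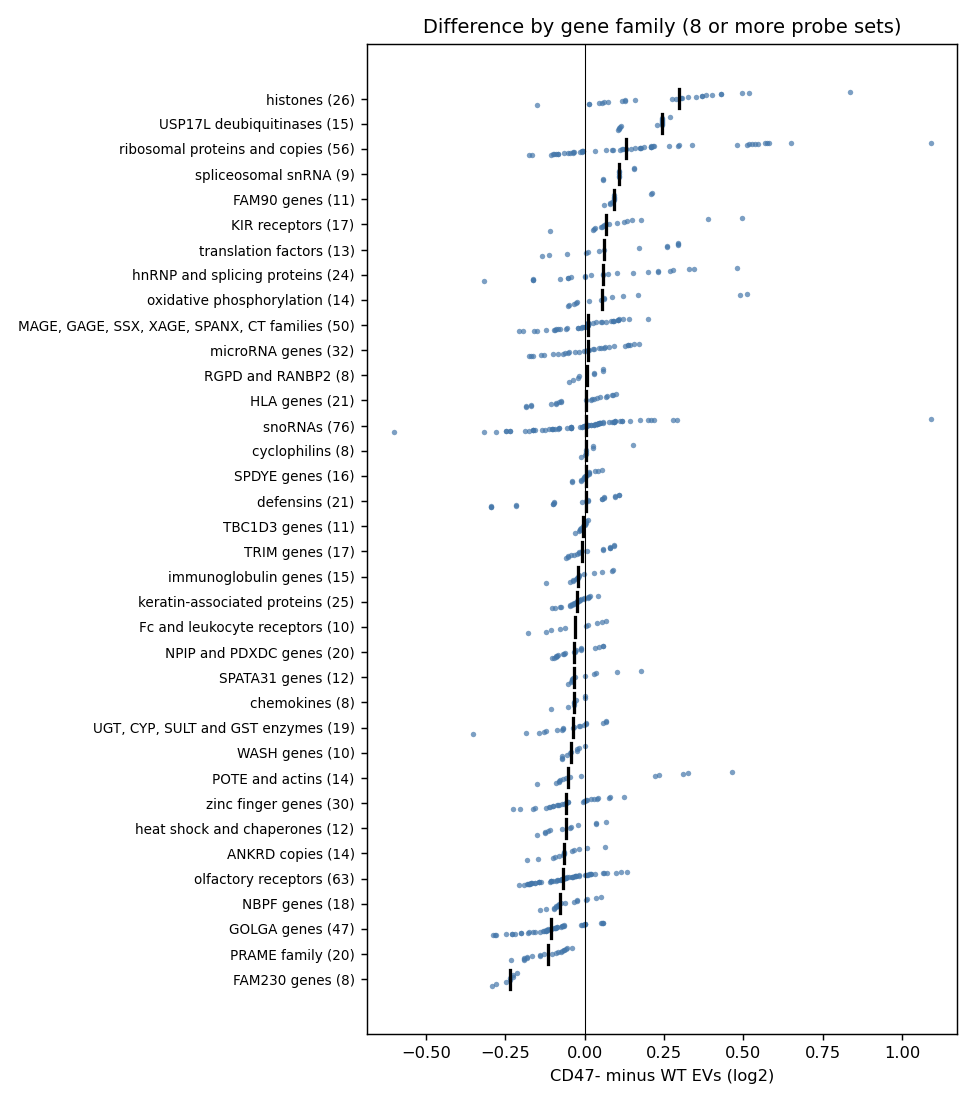
Log2 difference between CD47- and WT EVs (horizontal axis) of the shared probe sets in each gene family with at least 8 of them, with the number of probe sets in parentheses. Points are probe sets and vertical bars family medians, which run from -0.24 for FAM230 genes to 0.30 for histones.

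From the genes named in the study, EEF1A1, ETS1, CUL7, XPO1, YOD1, RCC1, RAN, RANBP1, CSNK2A1, TUBA1B, UBQLN1 and CD47 were looked up. Of these, 2 had shared probe sets, and the other genes that the study names were not looked up. RCC1/SNHG3, which holds the Ran exchange factor and a snoRNA host gene, had 5.43, 5.41 and 5.41 in WT and 5.52, 5.35 and 5.59 in CD47- EVs (difference 0.07, SE 0.08, adjusted p = 0.927), and the groups overlapped. CSNK2A3/CSNK2A1, the catalytic subunit of casein kinase 2 and its copy, had 5.98, 5.90 and 6.05 in WT and 6.24, 6.26 and 6.09 in CD47- EVs in one probe set, without overlap (difference 0.22, SE 0.08, adjusted p = 0.500). The other had 0.23 (SE 0.14, adjusted p = 0.810), with overlap.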

How the data were processed

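Affymetrix whole-transcript human gene arrays were analysed for 3 WT and 3 CD47- EV preparations, grouped by the submitters' labels. The labeling text calls the array a mouse array beside its human name. The deposited log2 values were computed by the authors with RMA, using Affymetrix Expression Console (versions not given in the sources used here). Symbols came from the platform annotation, which is older than current gene models. Of 2218 symbols, 2207 were in the RefSeq table, used for positions and upstream sequences.

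All 33297 probe sets were fitted with limma 3.58.1 in R 4.3.3 (lmFit, eBayes, no covariates), with Benjamini-Hochberg adjustment over all and a threshold of 0.05, and no filter. This step was tested on simulated data. Families were assigned by symbol patterns (for histones, olfactory receptors and most repeat families, at least 2 matching symbols), and a probe set can be in several or none (935 were in none). Members, families and lists were chosen with earlier results of these data known. Named probe sets were the called ones, the 5 with the smallest p in directions with fewer than 5 calls, and the 8 with the highest levels. Also named were up to 3 called or else the 2 with the smallest p of each family with at least 5 probe sets. Those with a gene looked up from the study, as listed above, were added. Further probe sets in the text were chosen after their values were seen. Y-linked symbols were not named. Alternatives were the replicate number as a block, other scalings, variance models, weights, filters and thresholds, and leaving out each array, and counting identical rows once was added after the data were seen. The number of arrays limits the precision.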

Additional observations from a re-analysis of the deposited data

How the results depend on the processing

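The 2 calls in the higher direction became 0 with the replicate number as a block, 9 after centering on olfactory receptor probe sets, 8 with only probe sets above the olfactory receptor median, 8 at an adjusted p under 0.1 and 1 at a change of at least 2-fold with an unadjusted p under 0.05, and 0 to 2 with 1 array left out (0 without WT array 2 or 3 or CD47- array 2 or 3, and the 2 without CD47- array 1 were RPL10/SNORA70/DNASE1L1 and H4C11/H4C12). The other alternatives gave 2, and no alternative gave a call in the lower direction. The block and the pairing rest on numbers only, since deviations of same-numbered arrays correlated between -0.043 and 0.0085. The median difference over shared probe sets was 0.061 after centering on olfactory receptors. Named probe sets near 0 changed sign. After centering, NBPF25P/NBPF19/NBPF20/NBPF10/NBPF8/NBPF9/NBPF15/NBPF11/NBPF12/NBPF3/NBPF1/NBPF14 had 0.039 and 0.042, CCL3L3/CCL3L1/CCL3 0.030, and TBC1D3 probe sets 0.034 and 0.046. After quantile normalization, NBPF probe sets had -0.069, -0.058 and -0.024, both U1 probe sets -0.017, PPIAL4C/PPIAL4A/PPIAL4G/PPIA -0.11, the IGLJ3 probe set -0.079 and a SPDYE16 probe set -0.016. With array weights, NBPF probe sets had -0.037, -0.033 and -0.00843. With 1 array left out, the 6 NBPF probe sets ran from -0.18 to 0.14, -0.17 to 0.14, -0.15 to 0.15, -0.17 to 0.091, -0.16 to 0.093 and -0.14 to 0.18, PPIAL4C/PPIAL4A/PPIAL4G/PPIA from -0.059 to 0.096, the PKD1P6-NPIPP1 probe set from -0.13 to 0.0026, SPDYE16 probe sets from -0.00537 to 0.088 and -0.019 to 0.13, TBC1D3 probe sets from -0.065 to 0.00181 and -0.062 to 0.018, and CCL3L3/CCL3L1/CCL3 reached 0.0025. The cause was not tested. Among named probe sets, 1155 of the values under alternatives kept direction and side of the threshold, 33 reversed, 6 newly passed and 12 no longer passed. With 3 arrays a group, a difference that misses the threshold is not shown to be absent.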

Other observations

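HERC2 encodes a large ubiquitin ligase, and its duplicated copies on chromosomes 15 and 16 share 5 probe sets, a group chosen after its values were seen. Their log2 differences between CD47- and WT EVs were all below 0, from -0.31 to -0.18, and in 4 of the 5 all CD47- arrays were below all WT arrays. HERC2P4/HERC2P9/HERC2P2/HERC2P3/HERC2 had -0.26 and -0.30 in its 2 probe sets (adjusted p = 0.371 and 0.380), so none was called.

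The lowest difference of any shared probe set belonged to SMIM10L2B-AS1/ZNF75D at -0.68 (SE 0.25, adjusted p = 0.516). SMIM10L2B-AS1/ZNF75D had 5.999, 6.02 and 5.21 in WT and 5.46, 4.79 and 4.95 in CD47- EVs, so the groups overlapped, and it has 2 probe sets with identical values. PTCRA/SMARCD2, which joins the pre-T cell receptor alpha chain with a chromatin remodeling subunit, had 4.86, 4.85 and 4.83 in WT and 5.22, 5.20 and 5.13 in CD47- EVs (difference 0.34, SE 0.07, adjusted p = 0.111), while PTCRA alone had a difference of -0.01.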
